A study of Mus musculus with 25 samples.

Results

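Signals of 8 genes of fat cells and of fatty acid storage were followed in whole lung of C57BL/6 mice, an inbred laboratory strain, while their food was cut by 2/3. The genes were Adipoq, Car3, Lipe, Pnpla2, Scd1, Thrsp, Fasn and Cfd. On the MG-U74Av2 array each transcript is read by a probe set, and every probe set with 1 of these symbols as its only annotated symbol was taken. That gave 9 probe sets of 7 genes among the 12422 probe sets that are not controls. Scd1 had 3 of them, and no probe set was named for Cfd, so Cfd was not analysed here. Calorie-restricted (CR) mice were taken after 2, 4, 12, 24, 48, 72 and 96 h of the diet, with 2 arrays at each time. Fed controls came from 0 h, with 4 arrays, and from 2, 4 and 12 h, with 2 arrays per hour; together the 11 groups hold 24 arrays. No age or sex is used here, and all animals share the strain and carry no other stated treatment. The descriptions say of the controls that they were always fed, yet repeat the wording of the cut by 2/3, so the feeding of the controls is uncertain. The series title names a loss of alveoli, the air sacs where gas is exchanged, over this time course.

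Fat is stored as triglyceride and released by lipolysis. Pnpla2 (adipose triglyceride lipase) removes the first fatty acid, and Lipe (hormone-sensitive lipase) removes the next one. Lipogenesis is the opposite path: Fasn (fatty acid synthase) builds saturated fatty acids, Scd1 (stearoyl-CoA desaturase) puts a double bond into them, and Thrsp (thyroid hormone responsive protein) is a nuclear and cytosolic protein of lipogenic tissues. Adipoq encodes adiponectin, a hormone secreted by fat cells, Cfd encodes adipsin, and Car3 encodes a cytosolic carbonic anhydrase that is abundant in fat cells and also present in slow muscle and liver. In lung, fat cells lie around large airways and vessels, while alveolar type II cells make fatty acids for surfactant lipid, so Fasn and Scd1 are not genes of fat cells alone. In adipose tissue, fasting is known to raise lipolysis and to lower lipogenesis.

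The 250 bases before the transcription start are shown for the genes whose levels are contrasted here, lipases first. The letters ahead of lipolysis, lipogenesis and fat cell genes can thus be read side by side. The sequences are RefSeq's on GRCm38.p6, 5' to 3' on the gene's strand; 6 of the 8 genes had an entry, with 7 starts in all, and Car3 and Scd1 had none. Capitals mark matches, on either strand, to CCAAT, to the E-box CACGTG or to GTAAACA, the letters of a FOXO site; in Fasn, 2 matches to CCAAT on opposite strands overlap.
Pnpla2, chr7:141454938-141455187, plus strand: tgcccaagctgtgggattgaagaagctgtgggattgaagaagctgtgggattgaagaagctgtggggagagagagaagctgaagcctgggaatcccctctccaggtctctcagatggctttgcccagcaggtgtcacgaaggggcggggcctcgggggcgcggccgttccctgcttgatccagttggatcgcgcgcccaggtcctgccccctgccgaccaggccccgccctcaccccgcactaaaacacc
Lipe, chr7:25390113-25390362, minus strand: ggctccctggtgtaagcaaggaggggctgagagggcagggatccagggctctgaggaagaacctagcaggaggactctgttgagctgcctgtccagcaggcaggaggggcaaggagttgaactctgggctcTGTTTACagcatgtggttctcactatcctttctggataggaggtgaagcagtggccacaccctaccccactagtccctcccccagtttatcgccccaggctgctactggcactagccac
Lipe, chr7:25395988-25396237, minus strand: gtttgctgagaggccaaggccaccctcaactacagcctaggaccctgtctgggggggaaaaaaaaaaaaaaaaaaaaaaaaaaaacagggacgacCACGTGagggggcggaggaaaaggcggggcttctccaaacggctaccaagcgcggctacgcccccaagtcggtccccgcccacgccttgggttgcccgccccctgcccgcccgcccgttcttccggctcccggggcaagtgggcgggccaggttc
Thrsp, chr7:97417551-97417800, minus strand: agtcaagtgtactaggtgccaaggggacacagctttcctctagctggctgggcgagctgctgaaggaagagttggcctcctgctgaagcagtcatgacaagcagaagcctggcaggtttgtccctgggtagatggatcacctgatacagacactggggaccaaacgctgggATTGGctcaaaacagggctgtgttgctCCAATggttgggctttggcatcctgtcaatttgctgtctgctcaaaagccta
Fasn, chr11:120824548-120824797, minus strand: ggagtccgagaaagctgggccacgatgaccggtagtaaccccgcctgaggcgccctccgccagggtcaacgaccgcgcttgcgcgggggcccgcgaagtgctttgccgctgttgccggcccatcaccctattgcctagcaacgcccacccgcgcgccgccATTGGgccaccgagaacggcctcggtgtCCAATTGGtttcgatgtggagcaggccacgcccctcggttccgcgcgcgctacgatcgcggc
Adipoq, chr16:23146286-23146535, plus strand: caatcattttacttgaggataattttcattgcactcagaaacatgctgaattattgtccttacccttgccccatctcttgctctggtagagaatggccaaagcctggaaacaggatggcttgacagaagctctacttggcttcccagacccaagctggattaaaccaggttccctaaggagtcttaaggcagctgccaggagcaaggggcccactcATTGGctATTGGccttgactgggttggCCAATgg
CCAAT was found 2 times before Thrsp, 3 times before Fasn and 3 times before Adipoq, and not before Pnpla2 or at either start of Lipe. GTAAACA stood 119 bases before 1 start of Lipe, and CACGTG stood 155 bases before its other start. Among all 32851 promoter windows of this length, 33.8% held CCAAT, 6.02% held CACGTG and 3.17% held GTAAACA. The TATA box letters TATAAA (12.4% of windows) and the palindromic glucocorticoid response element (0.387%) were searched for on both strands and matched none of these windows. The matches describe letters in a window and show no binding. Fasn, with 3 matches to CCAAT, was not called in any comparison with fed lung. A link between these letters and the direction of change was not tested.

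Some differences between arrays cut across the groups. Median signal before scaling was 300.2 to 342.3 per array. The highest signal was 74440 to 99040 on 12 arrays (fed 0 h number 1, fed 12 h, and CR 2, 12, 24 and 48 h) and 31600 to 54310 on the other 12. The ratio of the 3' to the 5' Gapdh probe set, a sign of RNA quality, ranged from 1.01 to 2.15 and was highest in fed 0 h and CR 48 h. Titles give each array a number plus a letter (a, b); number 2 occurs in fed 0 h alone, and 39.9% of the probe sets tested were called between its numbers 1 and 2. The labels do not say whether a and b are separate mice or repeat arrays of 1 RNA, so p-values may measure technical spread only.

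Levels below are linear signals after scaling each array to the same median. Probe sets bind with different strength, so no difference in level between them is read as a difference between genes, and a summed signal is weighted by its brightest probe sets. Tests used log2 signals of 7440 probe sets, those at or above the median of an array in 2 or more arrays. A change was called at an adjusted p under 0.05 (limma, Benjamini-Hochberg over all 7440); a fold is the ratio of geometric means, given with its 95% confidence interval (CI). Of the 9 probe sets, 8 passed that filter. The dimmest Scd1 probe set, 94058_r_at, read 35.14 to 122.9, at or under the floor signal of 80.37 on 15 of 24 arrays, and was not tested.

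Pnpla2 (96348_at; chr7:141455188-141460743 in GRCm38.p6) rose with restriction and also differed between hours in fed lung. Its signals at fed 0 h were 3829, 3949, 4125 and 4464. They were 5072 and 5688 at fed 2 h, 5783 and 5519 at fed 4 h, and 7262 and 6173 at fed 12 h. In CR lung they were 4874 and 6548 at 2 h, 5479 and 5299 at 4 h, and 7522 and 8172 at 12 h. These early CR values lie close to those of fed lung at the same hours. Late CR arrays read 5849 and 7063 at 24 h, 8417 and 8952 at 48 h, 8296 and 10160 at 72 h, and 10160 and 12690 at 96 h. All 8 late arrays were above the 4 fed 0 h arrays, as for 3.05% of all probe sets. The 6 arrays of 48 h and later were above every fed array, for which no share over all probe sets is given. Averaged over 24 to 96 h, Pnpla2 was higher than at fed 0 h by 2.14-fold (95% CI 1.83 to 2.50, adjusted p = 1.79e-06), and it was called at each of the 4 late times.

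Lipe (103083_at; chr7:25379527-25398486) rose at 24 and 48 h and was near fed levels at 96 h. It read 236.3, 429.9, 835.3 and 858.4 at fed 0 h, so number 1 was low and number 2 high. Fed 2, 4 and 12 h gave 725.3 and 579.7, 499.2 and 636.1, and 761.8 and 397.8. Restricted lung read 672.1 and 712.9 after 2 h, then 599.4 and 595.8 at 4 h and 600.7 and 850.7 at 12 h. Up to 12 h fed and CR arrays thus overlapped. At 24 h Lipe read 1425 and 1489, at 48 h 1454 and 1364, at 72 h 977.7 and 1203, and at 96 h 785.3 and 709.9. The 4 arrays of 24 and 48 h were above all others of the series, for which no share over all probe sets is given. Both 96 h arrays fell inside the range of fed 0 h. The late mean was above fed 0 h by 2.19-fold (CI 1.49 to 3.22, adjusted p = 0.00832). That call was lost with only the groups compared in the fit (adjusted p = 0.0551). Single times were called at 24 h, at 2.80-fold (CI 1.62 to 4.84, adjusted p = 0.0386), and 48 h, at 2.71-fold (CI 1.57 to 4.68, adjusted p = 0.032). They were not called at 72 h, at 2.09-fold (CI 1.21 to 3.61, adjusted p = 0.0942), or 96 h, at 1.44-fold (CI 0.832 to 2.48, adjusted p = 0.414).

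**Figure D1:**
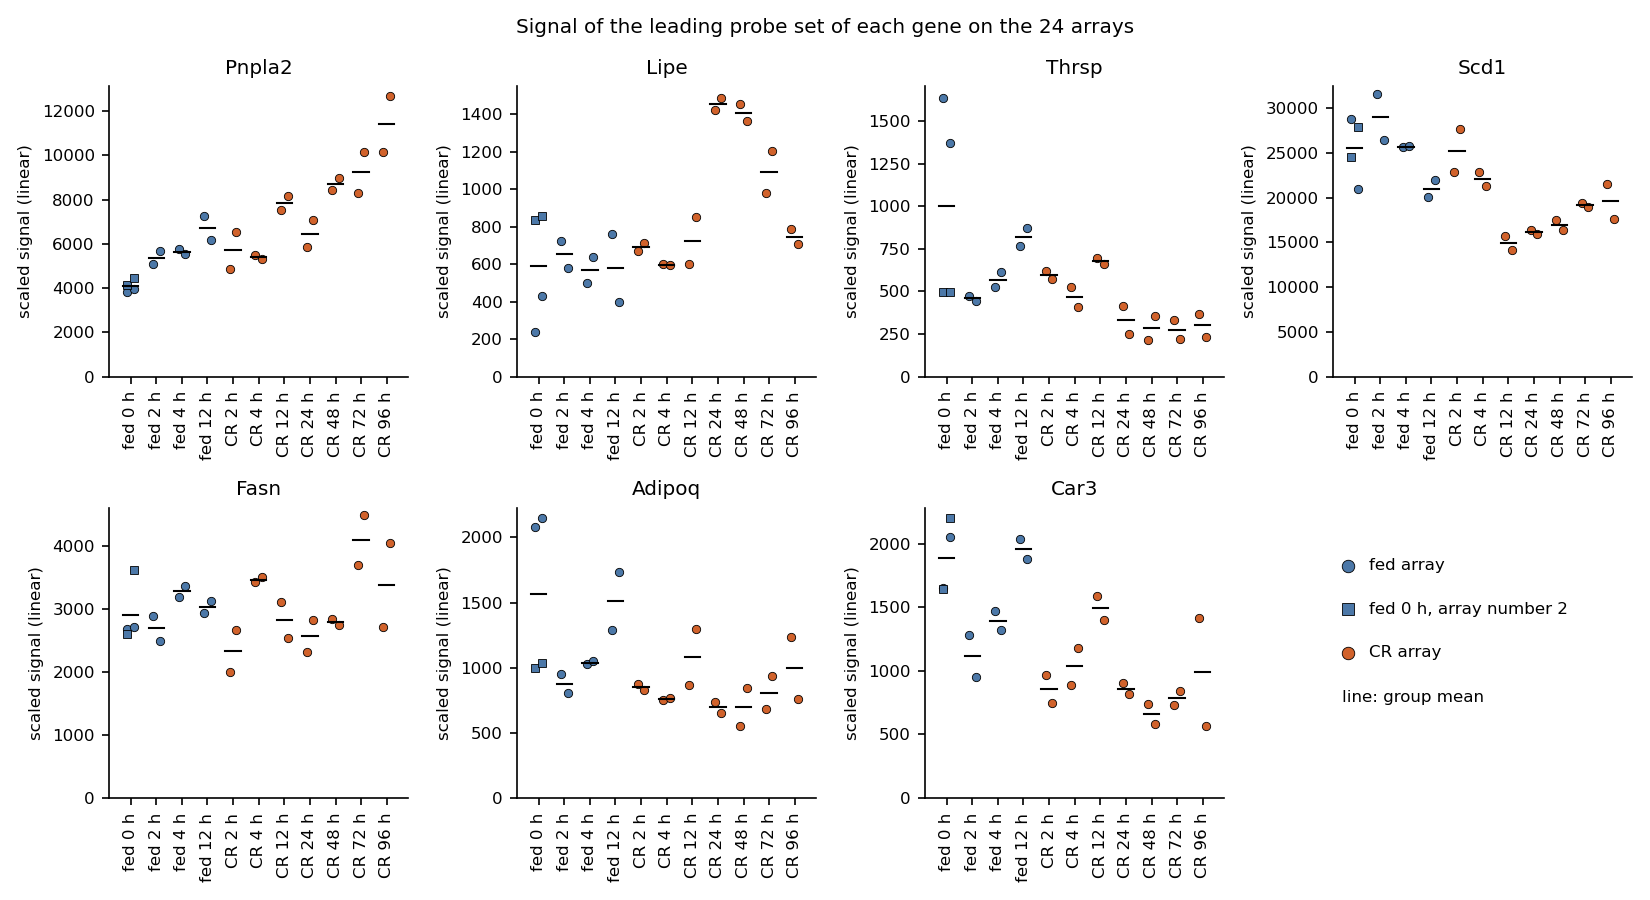
Scaled linear signal of the leading probe set of each gene on every array, by diet and hour; points are arrays (fed blue, CR orange, squares for fed 0 h number 2) and lines are group means. Pnpla2 is higher on all late CR arrays than at fed 0 h, Lipe peaks at 24 and 48 h, and Thrsp is lower on all 8 late arrays than on any fed array.

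Among the lipogenesis genes, Thrsp (160306_at; chr7:97412933-97417550) fell most. At fed 0 h it read 1637 and 1370 for number 1 but 498 and 495.1 for number 2. Fed 2 h gave 470.9 and 446.8, fed 4 h 523.7 and 616.4, and fed 12 h 769.3 and 873.8. CR 2 h gave 617.8 and 571.1, CR 4 h 523.8 and 409.9, and CR 12 h 694.6 and 659.9. Early CR arrays thus lay among the fed ones, apart from the lower 4 h array. From 24 h on, Thrsp read 411.9 and 247.4, then 217.3 and 358.2 at 48 h, 333.1 and 218.9 at 72 h, and 369.5 and 235.2 at 96 h. Every late CR array was below all 10 fed arrays. Of all probe sets, 2.22% lay wholly below fed 0 h in late CR and 1.12% wholly below fed 2, 4 and 12 h. The late mean was lower than fed 0 h by a factor of 2.97 (CI 1.95 to 4.52, adjusted p = 0.00156). Among single times Thrsp was called at 48, 72 and 96 h and missed at 24 h (adjusted p = 0.0651).

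Scd1 (chr19:44394450-44407709) fell by less, and its lowest values came at 12 h and 24 h. Its brightest probe set, 94056_at, read 28790, 20970, 24610 and 27880 at fed 0 h, 31630 and 26500 at fed 2 h, 25640 and 25790 at fed 4 h, and 20070 and 21940 at fed 12 h. CR arrays gave 22890 and 27650 at 2 h, 22840 and 21370 at 4 h, and 15690 and 14150 at 12 h. Late values were 16380 and 15920 at 24 h, 17540 and 16450 at 48 h, 19400 and 18940 at 72 h, and 21560 and 17660 at 96 h. Of the 8 late arrays, 7 were below every fed array, and CR 96 h array 1a was inside the fed range. The late mean was lower by a factor of 1.42 (CI 1.22 to 1.65, adjusted p = 0.00369), with calls at 24 and 48 h. The probe set 94057_g_at fell by a factor of 1.61 (CI 1.24 to 2.10, adjusted p = 0.0151); its signals were 18270 to 23050 at fed 0 h and 6252 to 20860 in late CR, with both 24 h arrays lowest at 8702 and 6252. That call was lost without fed 0 h array 1a (adjusted p = 0.0627) and with array weights (0.183). Its single-time call came at 24 h, where it was lower by a factor of 2.73 (CI 1.87 to 3.97, adjusted p = 0.0047). Scd1 reads close to the top of some arrays: before scaling, 94057_g_at was 39340 on fed 2 h array 1a, whose highest signal was 40910. With quantile normalization neither Scd1 probe set passed (log2 change -0.27, adjusted p = 0.102, and -0.50, adjusted p = 0.109).

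Fasn (98575_at; chr11:120805958-120825166) did not pass in any comparison with fed lung. It read 2689, 2708, 2609 and 3628 at fed 0 h, 2889 and 2494 at fed 2 h, 3191 and 3367 at fed 4 h, and 2941 and 3126 at fed 12 h. In restricted lung the signals were 2003 and 2669 at 2 h, 3430 and 3502 at 4 h, and 3106 and 2533 at 12 h. The late pairs were 2312 and 2822, then 2842 and 2754, then 3695 and 4488, and 2710 and 4055 for 24, 48, 72 and 96 h. The late CR arrays thus spanned the whole fed range, and the ratio of late CR to fed 0 h was 1.09 (CI 0.9 to 1.31, adjusted p = 0.532). Among late times Fasn was highest at 72 h at 3695 and 4488, above fed 0 h by 1.41-fold (CI 1.08 to 1.85, adjusted p = 0.106) without passing. Fasn was thus the 1 gene of the lipogenesis set whose late interval included no change.

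Both fat cell genes with a probe set were lower in late CR. Adipoq (99104_at; chr16:23146536-23157968) read 2077 and 2150 in fed 0 h number 1 and 994.3 and 1036 in number 2. It read 951.2 and 806.4 at fed 2 h, 1025 and 1049 at fed 4 h, and 1290 and 1733 at fed 12 h. CR lung gave 878.2 and 828.3 at 2 h, 751.3 and 769.6 at 4 h, and 866.9 and 1297 at 12 h. The 12 h arrays were higher than those of 2 and 4 h in fed lung, and 1 of 2 was in CR lung. At 24 to 96 h the lowest, median and highest of the 8 arrays were 554.5, 750.5 and 1233, with CR 96 h array 1a the only one inside the fed 0 h range. The late mean was lower by a factor of 1.88 (CI 1.37 to 2.57, adjusted p = 0.00866); the call was lost without fed 0 h array 1b (adjusted p = 0.0523), with array weights (0.073) and with only the groups compared in the fit (0.0626).

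Car3 (160375_at; chr3:14863538-14872381) had a similar course with a wider separation from fed 0 h. Its fed 0 h signals were 1652, 2049, 1647 and 2203. Fed 2 h gave 1285 and 952.2, fed 4 h 1470 and 1322, and fed 12 h 2034 and 1878. CR 2 h gave 965.9 and 744.8, CR 4 h 890.2 and 1179, and CR 12 h 1587 and 1402. Both diets were lowest at 2 h and highest at 12 h within those hours. Late CR signals were 905.3 and 815.8 at 24 h, 736 and 585.8 at 48 h, 731 and 844.8 at 72 h, and 1417 and 566.3 at 96 h. All 8 were below the fed 0 h arrays, and the 96 h group held both the highest and the lowest of them. The late mean was lower by a factor of 2.36 (CI 1.80 to 3.09, adjusted p = 0.000243), and Car3 was called at each late time. In whole tissue, fewer fat cells and less RNA per fat cell cannot be told apart.

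Counted over the late comparison with fed 0 h, 7 of the 8 probe sets were called, 2 higher and 5 lower. Of all 7440 probe sets 18.1% were called, 9.85% higher and 8.24% lower. Pnpla2 lay wholly above fed 0 h, as did 3.05% of all probe sets, and Thrsp and Car3 lay wholly below, as did 2.22%. At the single times 5 of 8 were called at 24 h (2.82% of all), 6 at 48 h (5.44%), 3 at 72 h (5.82%) and 3 at 96 h (6.49%). Without the CR 48 h arrays the late count was again 7, for which no share over all probe sets is given.

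**Figure D2:**
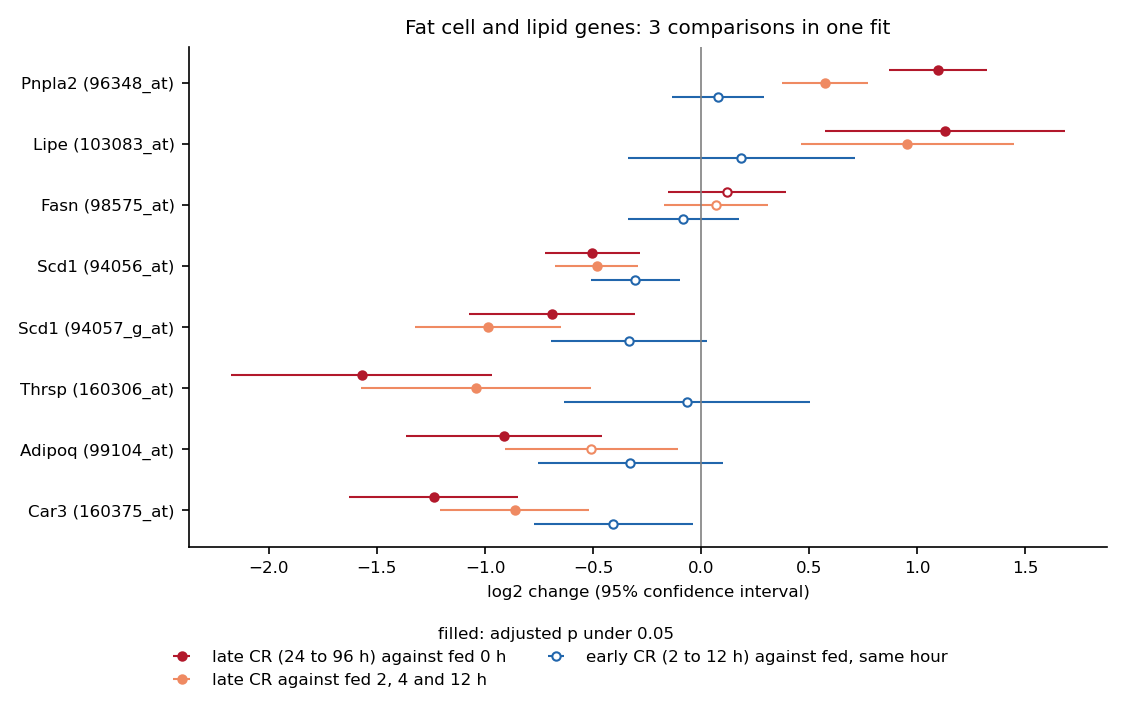
Change in log2 signal (x axis) of the 8 tested probe sets with 95% confidence intervals, for late CR against fed 0 h (dark red), late CR against fed 2, 4 and 12 h (orange) and early CR against fed lung of the same hour (blue); filled points have an adjusted p under 0.05. Pnpla2 and Lipe are right of 0 and Thrsp, Scd1 and Car3 left of it in both late comparisons, and no early point is filled.

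The size of several changes depended on which fed 0 h arrays were used. Number 1 exceeded number 2 by 3.02-fold (CI 1.99 to 4.56, adjusted p = 0.000236) for Thrsp and by 2.08-fold (CI 1.46 to 2.96, adjusted p = 0.0019) for Adipoq. For Lipe number 1 was lower by a factor of 2.66 (CI 1.78 to 3.97, adjusted p = 0.000509). Pnpla2, Car3, Fasn and both Scd1 probe sets did not pass in this comparison, which called 3 of 8 beside 39.9% of all probe sets. Means of the 7 other tested fat cell genes were unequal too, in both directions, and are given without a test: Retn averaged 703.1 in number 1 and 184.1 in number 2, Fabp4 458.2 and 233.2, and Pck1 174.4 and 112.9. The 4 others tested were lower in number 1: Gpd1 averaged 894.5 and 1816, Nrip1 465.4 and 1153, Cebpa 6682 and 8822, and Lep 1045 and 1260. Cox8b, a gene of brown fat and of muscle, averaged 1009 and 496.9, and the part of such tissue in these differences was not tested.

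Against number 2 alone, 4 of the 8 were called in the late mean (7.76% of all), and against number 1 alone 7 were (49.4%). Against number 2 Pnpla2 was higher by 2.04-fold (CI 1.70 to 2.43, adjusted p = 1.91e-05), and Car3 was lower by a factor of 2.40 (CI 1.71 to 3.36, adjusted p = 0.00153). Thrsp was lower by 1.71 (CI 1.23 to 2.37, adjusted p = 0.0402) and Scd1 94056_at by 1.46 (CI 1.23 to 1.74, adjusted p = 0.00666). Lipe, higher by 1.34-fold (CI 0.977 to 1.84, adjusted p = 0.266), Adipoq, lower by 1.30 (CI 0.987 to 1.72, adjusted p = 0.253), and 94057_g_at, lower by 1.54 (CI 1.11 to 2.12, adjusted p = 0.0991), did not pass. The changes of Pnpla2 and Car3 were thus of like size against either number, while those of Lipe, Thrsp and Adipoq were larger against number 1.

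Each fed 0 h number shares its range of highest signal with only some of the late times. Among arrays of the high range, CR 24 and 48 h against number 1, 7 of 8 were called (46% of all): Lipe was higher by 4.49-fold (CI 3.18 to 6.36, adjusted p = 9.32e-07) and Thrsp lower by a factor of 5.02 (CI 3.50 to 7.18, adjusted p = 6.87e-07). Within the low range, number 2 set against CR 72 and 96 h gave 4 calls (10.7% of all): Pnpla2, Car3, Thrsp and Scd1 94056_at. There the Lipe ratio was 1.06 (CI 0.751 to 1.50, adjusted p = 0.856) and Thrsp was lower by a factor of 1.76 (CI 1.23 to 2.52, adjusted p = 0.0402). These comparisons differ in both time and control number, which cannot be told apart. With the signal range as a block over all arrays, 7 of 8 were called. Fed 0 h is the only group with arrays of both ranges, and late CR and fed 0 h each hold both ranges in equal numbers. This block thus cannot alter the size of the late change, only its spread, and does not test the part of the range.

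**Figure D3:**
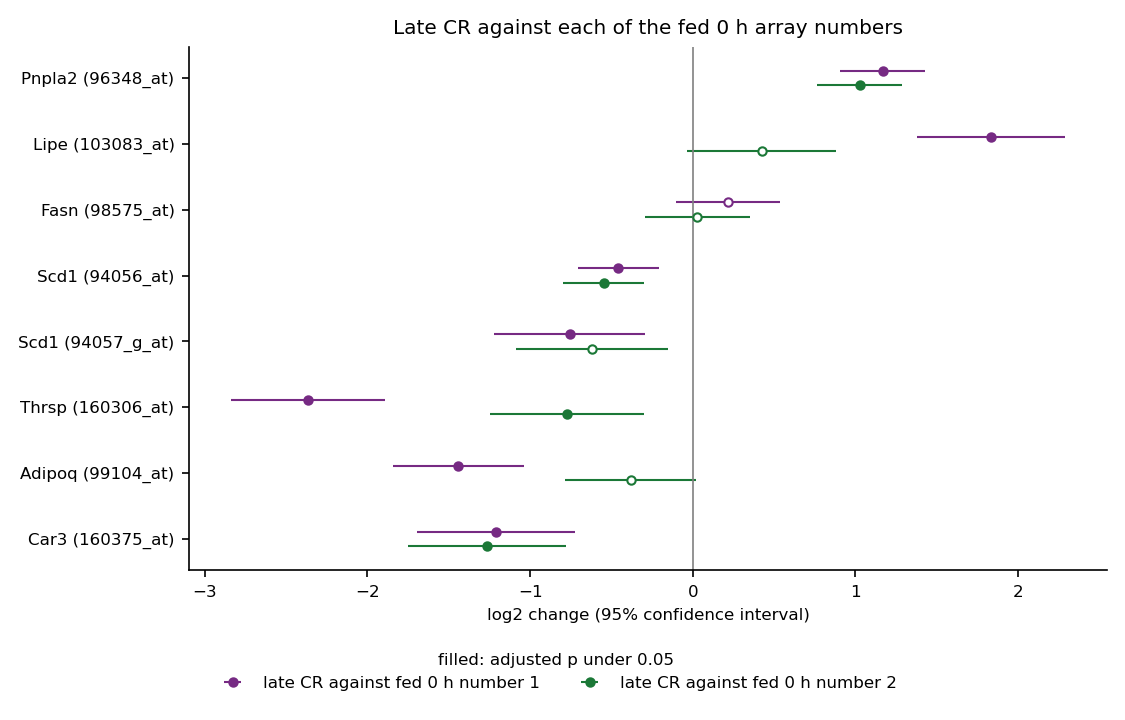
Change in log2 signal (x axis, 95% confidence intervals) of late CR against fed 0 h number 1 (purple) and number 2 (green); filled points have an adjusted p under 0.05. The intervals of Lipe, Thrsp and Adipoq do not overlap between the numbers, whereas those of Pnpla2, Car3, Scd1 and Fasn do.

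Fed 2, 4 and 12 h offered 6 control arrays without fed 0 h. With them as controls, late CR called 6 of the 8 probe sets, beside 6.34% of all. Pnpla2 was higher by 1.49-fold (CI 1.29 to 1.70, adjusted p = 0.000787) and Lipe by 1.94-fold (CI 1.38 to 2.72, adjusted p = 0.0178). Thrsp was lower by a factor of 2.06 (CI 1.42 to 2.98, adjusted p = 0.017), and its groups did not overlap (1.12% of all probe sets in that direction). Car3 was lower by 1.82 (CI 1.43 to 2.31, adjusted p = 0.00272), Scd1 94056_at by 1.40 (CI 1.22 to 1.60, adjusted p = 0.00269) and 94057_g_at by 1.98 (CI 1.57 to 2.50, adjusted p = 0.000662). Adipoq, lower by 1.42 (CI 1.08 to 1.88, adjusted p = 0.128), and Fasn, with a ratio of 1.05 (CI 0.887 to 1.24, adjusted p = 0.784), did not pass. This control mean mixes 3 hours of sampling. With fed 12 h as the only control 2 of 8 were called, Car3 and Thrsp. The matching count over all probe sets is given further below. The calls of Pnpla2 (log2 change 0.38, adjusted p = 0.212), Lipe (1.04, adjusted p = 0.157), Scd1 94056_at (-0.23, adjusted p = 0.475) and 94057_g_at (-0.53, adjusted p = 0.316) were lost. With fed 2 and 4 h alone 5 were called, and Thrsp was lost (-0.82, adjusted p = 0.101). For that control no share over all probe sets is given, so its count is not set against a background. The Lipe call was lost without fed 12 h array 1b, fed 2 h array 1b, fed 4 h array 1a or the CR 48 h group (adjusted p 0.0626 to 0.0817), and the Thrsp call without fed 12 h array 1b, fed 4 h array 1b, CR 72 h array 1b or CR 96 h array 1b (0.0514 to 0.0614).

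The contrast of lipolysis with lipogenesis was set out array by array. For each array the mean log2 deviation of Pnpla2 and Lipe from their fed 0 h means was taken, and the same mean over Thrsp, Scd1 and Fasn was subtracted. The result is described without a test. It ranged from -0.95 to 0.68 at fed 0 h, where both arrays of number 1 were below 0 and both of number 2 above. Other fed arrays ranged from 0.13 to 0.85 and early CR arrays from 0.52 to 1.33, the highest being CR 12 h array 1b. All 8 late CR arrays, from 1.43 to 2.11, were above the other 16. Pnpla2 and Lipe had been called higher and Thrsp and Scd1 lower in late CR on these same arrays. This separation thus restates those calls and adds no separate evidence. Group means were 1.82 at 24 h and 2.01 at 48 h, and then 1.64 for 72 h and 1.57 for 96 h. In late CR the mean deviation was 1.11 for the lipases and -0.65 for the lipogenesis genes. At 96 h the deviations were 1.31 and 1.64 for Pnpla2 and 0.60 and 0.45 for Lipe. On the same arrays they were -1.22 and -1.87 for Thrsp, -0.24 and -0.52 for Scd1, and -0.09 and 0.49 for Fasn.

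**Figure D4:**
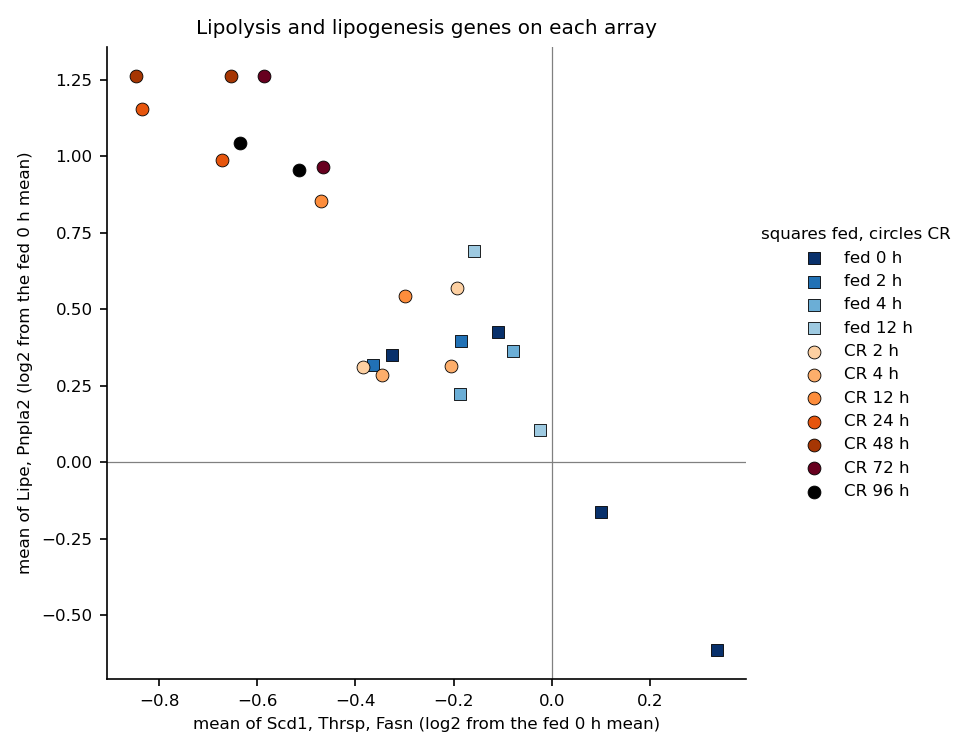
Each array's mean log2 deviation from the fed 0 h mean for the lipases Lipe and Pnpla2 (y axis) and for Scd1, Thrsp and Fasn (x axis); squares are fed and circles CR arrays, coloured by hour. The 8 late CR arrays lie at the upper left, and the fed 0 h arrays of number 1 at the lower right.

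In the first 12 h, CR against fed lung of the same hour called none of the 8 probe sets (limma, adjusted p of 0.999 for each); 2 of 7440 (0.0269%) were called over all. At an unadjusted p under 0.05 were 2 of the 8, beside 3.28% of all probe sets. Scd1 94056_at was lower by a factor of 1.24 (CI 1.07 to 1.42, unadjusted p = 0.00585) and Car3 by 1.32 (CI 1.03 to 1.71, unadjusted p = 0.0327). Lipe, higher by 1.14-fold (CI 0.79 to 1.64), Pnpla2, higher by 1.06-fold (CI 0.911 to 1.22), and Thrsp, lower by a factor of 1.05 (CI 0.705 to 1.55), had intervals that include no change. At 12 h Scd1 94056_at read 15690 and 14150 in CR lung and 20070 and 21940 in fed lung. The group mean was lower by a factor of 1.41 (CI 1.10 to 1.80, adjusted p = 0.647), in a comparison that called 0.148% of all probe sets.

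Without restriction, 1 of the 8 probe sets was called between hours of sampling. Between fed 0 h and fed 12 h Pnpla2 rose 1.64-fold (CI 1.31 to 2.04, adjusted p = 0.0212), and it was the 1 called probe set of the 8 (1.92% of all). All values at fed 12 h were above those at fed 0 h, as for 8.36% of all probe sets; without fed 12 h array 1a the adjusted p was 0.294. Within CR lung, Scd1 94056_at was lower at 12 h than at 2 h by a factor of 1.69 (CI 1.32 to 2.16, adjusted p = 0.029), again 1 of 8 (1.84% of all). That call was lost without any 1 of the 4 arrays (adjusted p 0.108 to 0.283) and with quantile normalization (0.158). Car3 read higher at 12 h than at 2 h in CR lung by 1.76-fold (CI 1.13 to 2.74, adjusted p = 0.207) without passing. At fed 2 h (0.0806% of all called) and fed 4 h (0.309%), none of the 8 was called against fed 0 h. Some intervals at fed 2 h still excluded no change. Thrsp was lower by a factor of 1.88 (CI 1.04 to 3.40, adjusted p = 0.424), Car3 by 1.69 (CI 1.15 to 2.48, adjusted p = 0.284) and Adipoq by 1.67 (CI 1.07 to 2.61, adjusted p = 0.383). Pnpla2 was higher by 1.31-fold (CI 1.05 to 1.64, adjusted p = 0.334). The intervals of Lipe, Fasn and both Scd1 probe sets at fed 2 h included no change. At fed 4 h Pnpla2 was higher by 1.38-fold (CI 1.11 to 1.73, adjusted p = 0.205). Scd1 94057_g_at was higher there by 1.5-fold (CI 1.03 to 2.17, adjusted p = 0.362), and the other intervals at fed 4 h included no change.

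Within late CR, 72 and 96 h against 24 and 48 h called none of the 8 (limma; 1.81% of all), while 4 had an unadjusted p under 0.05, beside 15.8% of all. Lipe was lower by a factor of 1.59 (CI 1.02 to 2.49, adjusted p = 0.29) and Pnpla2 was higher by 1.37-fold (CI 1.14 to 1.64, adjusted p = 0.0686), so the lipases had opposite signs. The Lipe groups did not overlap (4.34% of all probe sets in that direction). Those of both tested Scd1 probe sets did not overlap either, in the other direction, for which no share over all probe sets is given here. Scd1 94057_g_at was higher by 1.75-fold (CI 1.29 to 2.38, adjusted p = 0.0527), with an adjusted p of 0.0482 with the letter as a block, and Fasn by 1.37-fold (CI 1.10 to 1.71, adjusted p = 0.13). All arrays of 24 and 48 h are of the high signal range and all of 72 and 96 h of the low range, so time and range cannot be told apart here. An F test over the 4 late times called none (0.578% of all). Over all 11 groups the F test called 5 of 8, namely Pnpla2, Car3, Thrsp and both Scd1 probe sets (9.26% of all), with Adipoq (adjusted p = 0.116), Lipe (0.0912) and Fasn (0.208) not passing.

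Other genes of the same pathways were taken from lists, and the counts that follow leave the 8 genes out. In the lipolysis and lipid droplet list, 2 of 9 tested genes rose and 1 fell between fed 0 h and late CR. Angptl4, a secreted inhibitor of lipoprotein lipase, rose 3.72-fold (CI 3.09 to 4.48, adjusted p = 1.05e-08), and Lpl, lipoprotein lipase itself, rose 3.27-fold (CI 2.77 to 3.87, adjusted p = 1.05e-08). Fabp5, a fatty acid carrier, fell by a factor of 1.66 (CI 1.23 to 2.24, adjusted p = 0.0203). The cofactors of the lipases did not pass: Abhd5, the activator of Pnpla2, had a ratio of 1.27 (CI 0.997 to 1.62, adjusted p = 0.15) and its inhibitor G0s2 was lower by a factor of 1.46 (CI 1.03 to 2.09, adjusted p = 0.118). Mgll, which releases the last fatty acid, had a ratio of 1.04 (CI 0.887 to 1.21, adjusted p = 0.757). Angptl4 was also the 1 listed gene called in early CR, higher by 1.67-fold (CI 1.40 to 1.99, adjusted p = 0.0273).

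In the lipogenesis list, 2 of 11 other tested genes rose and none fell in the late comparison, with a median log2 change of 0.07 over those 11, beside -0.005 over all probe sets. Scd2, another desaturase, rose 1.56-fold (CI 1.18 to 2.05, adjusted p = 0.0265), opposite in sign to Scd1, and Elovl5, an elongase, rose 1.39-fold (CI 1.22 to 1.59, adjusted p = 0.00224). Against fed 2, 4 and 12 h neither passed, and Elovl1 was called lower by a factor of 1.64 (CI 1.27 to 2.11, adjusted p = 0.017). Srebf1, whose protein switches on lipogenesis genes, had a ratio of 1.05 (CI 0.864 to 1.27, adjusted p = 0.744), and Acly, which makes cytosolic acetyl-CoA, was lower by a factor of 1.08 (CI 0.91 to 1.29, adjusted p = 0.521). Thrsp and Scd1 were thus the only genes of the list called lower against fed 0 h. In triglyceride synthesis 2 of 6 tested genes rose: Lpin2 2.69-fold (CI 2.03 to 3.57, adjusted p = 8.18e-05) and Lpin1 2.59-fold (CI 1.46 to 4.61, adjusted p = 0.0235), both phosphatidate phosphatases. Among fat cell regulators 3 of 8 rose: Cebpd, 2.22-fold (CI 1.89 to 2.62, adjusted p = 1.79e-06), Cebpb, 2.00-fold (CI 1.63 to 2.44, adjusted p = 9.45e-05), and Klf5, 1.52-fold (CI 1.13 to 2.04, adjusted p = 0.047). In the adipokine list, 2 of 10 other tested genes rose and 1 fell. They were Lcn2, lipocalin 2, at 2.32-fold (CI 1.73 to 3.09, adjusted p = 0.000591), the adiponectin receptor Adipor2, at 1.32-fold (CI 1.12 to 1.56, adjusted p = 0.0209), and the retinol carrier Rbp4, lower by a factor of 1.40 (CI 1.17 to 1.67, adjusted p = 0.0115). Of 4 other tested carbonic anhydrase genes 1 fell, Car8, by a factor of 2.08 (CI 1.52 to 2.85, adjusted p = 0.00341).

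**Figure D5:**
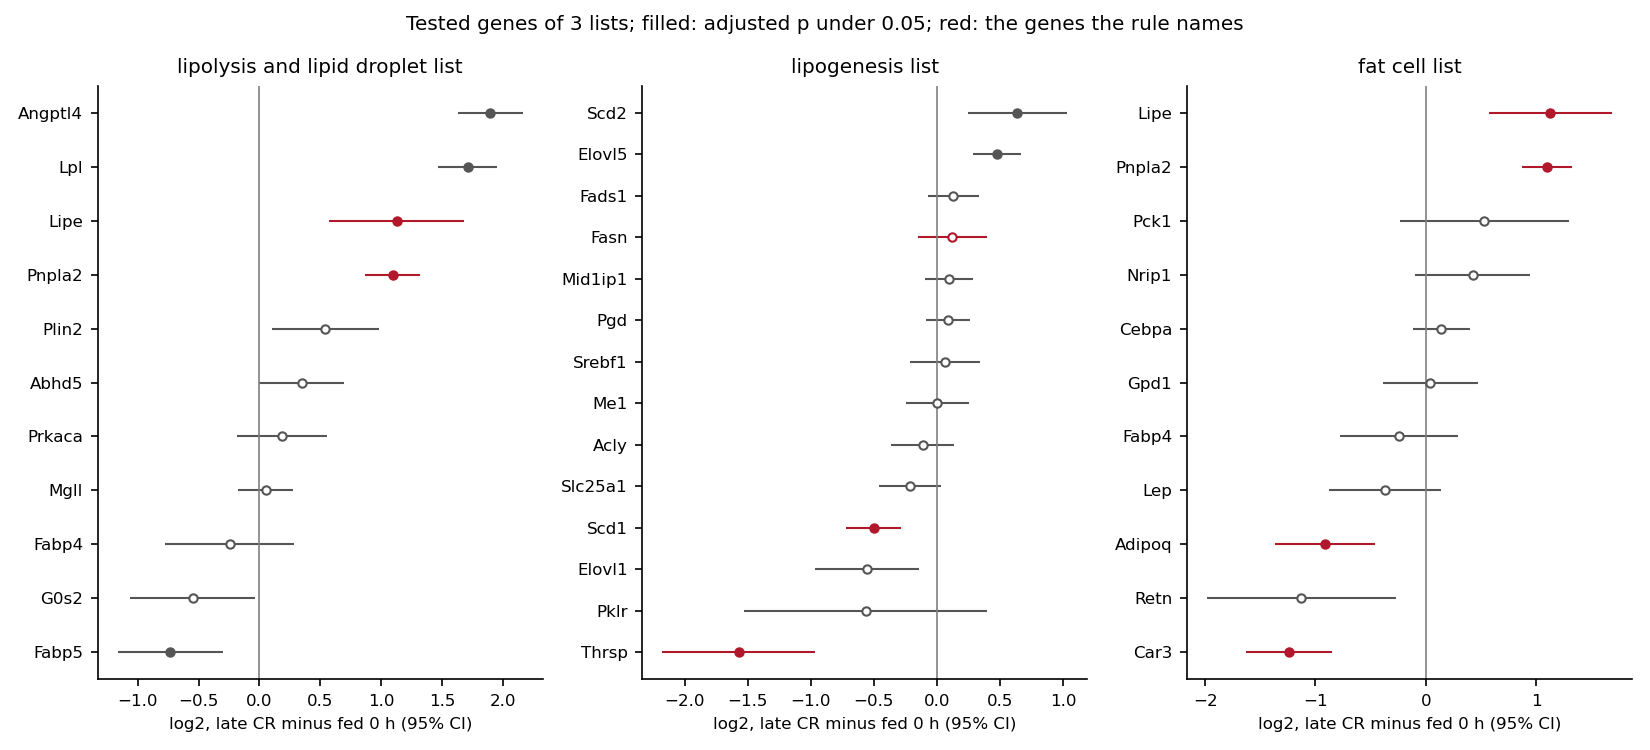
Change in log2 signal between fed 0 h and late CR (x axes, 95% confidence intervals) of the tested genes of the lipolysis, lipogenesis and fat cell lists; filled points have an adjusted p under 0.05, and red marks the genes described in detail. Angptl4 and Lpl lead the lipolysis list, Scd2 and Elovl5 are right of 0 where Scd1 and Thrsp are left of it, and no grey point of the fat cell list is filled.

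The fat cell list, 22 genes of which 17 were on the array and 11 tested, held no other called gene. None of its 7 other tested genes was called (limma, late CR against fed 0 h), and their median log2 change was 0.04. Retn, which encodes resistin, was lower by a factor of 2.18 (CI 1.21 to 3.95, adjusted p = 0.0607), and Lep, leptin, by 1.29 (CI 0.909 to 1.83, adjusted p = 0.292). Fabp4, a fatty acid carrier of fat cells, macrophages and endothelium, was lower by 1.19 (CI 0.819 to 1.72, adjusted p = 0.515). The other 4 read higher without passing: Pck1, 1.44-fold (CI 0.85 to 2.45, adjusted p = 0.315), Nrip1, 1.34-fold (CI 0.937 to 1.92, adjusted p = 0.234), Cebpa, 1.10-fold (CI 0.922 to 1.32, adjusted p = 0.431), and Gpd1, 1.03-fold (CI 0.763 to 1.39, adjusted p = 0.906). Cidec, Slc2a4, Aqp7 and Pparg were too dim to be tested, and so was Ucp1 of the brown fat list. The summed signal of the 13 other fat cell genes on the array ranged from 10830 to 15180 at fed 0 h and from 11690 to 16050 in late CR. Cebpa, also a gene of type II cells and macrophages, alone read 6460 to 11080 over the 24 arrays. Plin1 had no probe set named, and a change in the share of fat cells was not tested.

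Markers of other cell types moved between fed 0 h and late CR too, where 9.85% of all probe sets were called higher and 8.24% lower. Heart muscle genes were lower in late CR for 5 of 8 tested, among them Myl7, lower by a factor of 2.38 (CI 1.95 to 2.91, adjusted p = 7.36e-06). Their summed signal was 26630 to 34000 at fed 0 h, 16080 to 21900 at fed 2, 4 and 12 h and 12880 to 25730 in late CR. Against fed 2, 4 and 12 h, 1 of 8 heart genes was called lower. Myh6 of the same list went the other way, with means of 1453 at fed 0 h and 2086 in late CR. Against fed 0 h again, 1 of 6 skeletal muscle genes fell, Mb, by a factor of 1.47 (CI 1.16 to 1.86, adjusted p = 0.0248), and Car3 is also a muscle gene. Acta1 of that list was under the floor on 18 arrays and was not tested. It went the other way, with means of 38.28 at fed 0 h and 2634 at CR 96 h, and read 5027 on its highest array. Of the alveolar type II list, 2 of 7 rose, Slc34a2 and Sftpb, of macrophage genes 1 of 9, Lpl, and of lipofibroblast genes 2 of 5, Lpl and Pdgfra; none of 5 tested thymus and early T cell genes was called. Between 24 and 48 h and 72 and 96 h, 5 of 9 macrophage genes rose and 5 of 8 heart genes fell (1.81% of all called in either direction). The part of these cell types in the changes of the 8 genes was not tested.

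Across the 24 arrays Adipoq, Car3 and Thrsp correlated with each other at Pearson's r = 0.71 to 0.82, and Lipe correlated negatively with the same 3 at r = -0.54 to -0.80. Pnpla2 had r = 0.51 with Lipe, -0.62 with Scd1 and -0.66 with Thrsp, whereas r between Fasn and any other of them was -0.36 to 0.37. The points share the scaling and the diet groups, and after removal of the group means r was 0.17 to 0.42 among Adipoq, Car3 and Thrsp. For Lipe it was then 0.10 with Adipoq, 0.25 with Car3 and -0.24 with Thrsp. For Pnpla2 it was 0.29 with Lipe, -0.17 with Scd1 and -0.58 with Thrsp, and for Fasn it was 0.62 with Pnpla2 and -0.52 with Thrsp. Over all named probe sets tested, the profile most like Pnpla2 was that of Fkbp5 (r = 0.93), then Mknk2 (0.92) and Lyve1 (0.91). Most like Lipe were Enah (0.85), Ldb1 (0.84) and Klf13 (0.84). Thrsp was closest to Rarres2 (0.87), Mgp (0.86) and Bsg (0.86), and Adipoq to Thrsp (0.82), Dnajb6 (0.81) and Retn (0.80). Car3 was closest to Clec3b (0.78), Ldha (0.75) and Adipoq (0.74). Scd1 was closest to Gyg (0.80), Arhgdib (0.79) and Marcksl1 (0.78), and Fasn to Slc19a1 (0.79), Zfr (0.77) and Top2b (0.74). Within groups, with the fed 0 h numbers again separate, these 21 likenesses ranged from r = -0.02 for Gyg with Scd1 to 0.85 for Mknk2 with Pnpla2. The value was 0.28 for Fkbp5 with Pnpla2, 0.22 for Bsg with Thrsp, 0.15 for Marcksl1 with Scd1 and 0.78 for Retn with Adipoq.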

How the data were processed

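Lung RNA from C57BL/6 mice was measured on MG-U74Av2 arrays, and groups come from the array titles. The deposited table holds linear intensities, which the authors had brought to a shared scale before deposit, as a check of the values showed; which software did this is not stated in what was read here. 1 array of another design (45101 probe sets) has a title and a description that disagree on its treatment; it was put in no group and left aside.

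The table lists 12488 probe sets, of which 66 controls were dropped; GEO's annotation gives 1 symbol for 10833 of the others, several for 396 and none for 1193. Every array was scaled to a common median, signals below the 25th percentile (80.37) were set to it, which compresses changes of dim probe sets, and log2 was taken. The means of the 11 groups were estimated from the 24 arrays together (limma 3.58.1 under R 4.3.3; lmFit, then eBayes with a trend; 13 residual degrees of freedom), with two-sided tests of 7440 probe sets; the fit was first tested on simulated data. Mostly 2 arrays a group limit the precision.

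The members and the lists were chosen with earlier results of these data known. Named were all probe sets of the 8 genes, the brightest leading; up to 4 called genes per list by smallest p, for late CR against fed 0 h and between late times; and the 3 genes most correlated with each. Genes named without a call, and those named for other comparisons, were picked with their values known. Alternatives varied the scaling, floor, filter, variance model, weights, groups fitted, block, control number and arrays kept. Chosen after seeing the data were the signal range as a block, leaving out CR 48 h, and the use of fed 12 h or of fed 2 and 4 h as sole controls.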

Additional observations from a re-analysis of the deposited data

Results flagged for a closer look

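Fasn at fed 0 h had 1 array apart from the others. Array 2b read 3628, whereas the other 3 read 2609 to 2708, so the gap to its neighbour was 0.903 of the group's range, above Dixon's 95% critical value for 4 arrays. By chance about 1 in 20 such groups would show a gap of this kind, and 9 probe sets were looked at. Fasn did not pass against fed 0 h with all 4 arrays or without any 1 of them.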

How the results depend on the processing

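Over the 8 tested probe sets and 6 comparisons, 1208 recomputed values were set against those reported: 1118 kept their sign and their side of the threshold, 52 lost a call, 14 gained one and 24 changed sign. None of the 24 was a called value or was called under the alternative; they belong to 10 results, each within 0.16 of 0 on the log2 scale as reported, and their lowest adjusted p was 0.123. As log2 changes between fed 0 h and 12 h they were -0.50 for Adipoq with number 1 alone, -0.62 for Lipe, 0.72 for Thrsp and -0.021 for Fasn with number 2 alone, and -0.016 for Lipe and 0.038 for Thrsp with array weights. Fasn was -0.014 for CR 24 and 48 h against number 1. The others came from leaving out 1 array, where fed 12 h against 0 h ranged from -0.39 to 0.55 for Lipe, -0.34 to 0.24 for Thrsp, -0.40 to 0.086 for Scd1 94057_g_at and -0.18 to 0.24 for Adipoq. So did Fasn against fed 2, 4 and 12 h (-0.004 to 0.14), Thrsp (-0.27 to 0.10) and Car3 (-0.17 to 0.49) between late times, and Lipe for CR 12 h against 2 h (-0.21 to 0.30). With about 2 arrays a group, an adjusted p near 0.05 is easily lost, and dim probe sets give only compressed changes. Where a count changed, the cause was not tested.

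Late CR against fed 0 h called 5 members with array weights (Adipoq and Scd1 94057_g_at lost), 5 with only the groups compared in the fit (Lipe and Adipoq lost) and 5 with quantile normalization (both Scd1 probe sets lost). Of the 7 late calls, 4 remained with fed 0 h number 2 alone and 4 for CR 72 and 96 h against number 2. The count over all probe sets, 1346, was 3679 with number 1 alone, 577 with number 2 alone, 3423 for CR 24 and 48 h against number 1, 793 for CR 72 and 96 h against number 2 and 2543 with the signal range as a block. Fed 12 h against fed 0 h called 3 members and 2304 probe sets in all with number 1 alone, and 649 with number 2 alone. With fed 12 h as the only control, late CR called 2 members and 133 probe sets.

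Array weights gave 288 (late against fed 0 h), 28 (fed 12 h against fed 0 h), 1195 (late against fed 2, 4 and 12 h), 484 (72 and 96 h against 24 and 48 h) and 531 (CR 12 h against 2 h) probe sets; members were 0 for fed 12 h against fed 0 h, 3 between late times and 2 for CR 12 h against 2 h. With only the groups compared in the fit the same comparisons gave 347, 0, 1131, 259 and 425, with 0, 2 and 2 members in those 3, and the early comparison gave 1. Averaging letters a and b leaves 1 residual degree of freedom, the spread between the fed 0 h numbers; 0 members were called in any comparison, and 23, 0, 14, 3 and 0 probe sets in all, with 0 in the early one. Early counts were 10 without the filter and 0 without the trend, beside 2. For 72 and 96 h against 24 and 48 h, 1 member (Scd1 94057_g_at) was called on the values as deposited and 1 with the filter at 12 arrays. For CR 12 h against 2 h, 0 were called with quantile normalization. Without the filter, Lipe (adjusted p = 0.0593) and Thrsp (0.0572) were lost against fed 2, 4 and 12 h. As deposited, 140 rose and 57 fell at fed 12 h (76 and 67 as reported; 125 and 62 with quantile normalization), and 235 rose and 269 fell against fed 2, 4 and 12 h (269 and 203 as reported; 248 and 268 with quantile normalization).

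The letters a and b did not pair the arrays: deviations of same-lettered arrays correlated at -0.19 to 0.12, and 12 of 24 arrays correlated best with their own letter. With the letter as a replicate block the late count was 1277 with 7 members, the early count was 1, and 1 member was called for 72 and 96 h against 24 and 48 h; the block changed no other call of a member.

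Leaving out 1 array at a time gave 6 to 7 members and 542 to 2248 probe sets for late CR against fed 0 h. The low counts came without fed 0 h array 1b (542), 1a (595) or CR 96 h array 1b (857), the high ones without fed 0 h array 2a (2248) or 2b (2155). The ranges were 4 to 6 and 283 to 461 against fed 2, 4 and 12 h, 0 to 1 and 18 to 337 for fed 12 h against fed 0 h, 0 and 46 to 127 for 72 and 96 h against 24 and 48 h, 0 and 10 to 55 for CR 12 h against 2 h, and 0 and 0 to 3 for early CR.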
